A study of Mus musculus with 12 samples.

Results

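Carbonic anhydrases are described here from RNA-seq of mouse mammary tissue. 9 genes were chosen by name (Car2, Car3, Car4, Car6, Car8, Car9, Car12, Car13 and Car14), of the 16 carbonic anhydrase genes and of the 23301 gene names that all 12 expression tables share. Each of the 9 had 1 row in every table. The normal group held mammary glands of 12-week-old wild type FVB females, in 3 replicates that each pooled the abdominal and inguinal glands of 3 mice. The tumor group held 3 untreated tumors of 12-week-old MMTV-PyVT females, each from the thoracic gland of 1 mouse. In this strain the mammary tumor virus promoter drives the polyoma middle T oncogene in the mammary epithelium. The other groups were 3 tumors of MMTV-PyVT females injected with DMSO and 3 of those injected with C646, an inhibitor of the acetyltransferase p300, at the same age. The labels give 1 mg/kg for both injections. All tumors, those of the DMSO controls included, therefore carried the transgene. Between normal and tumor, the tissue changed together with the gland's position and with pooling of mice, and these cannot be told apart.

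Carbonic anhydrases turn carbon dioxide and water into bicarbonate and a proton, and back. Enzymes inside the cell serve pH balance and metabolism, while those anchored in the cell membrane work on the outside and set the pH there together with bicarbonate transporters and proton or lactate exporters. CA9 and CA12 are known as membrane enzymes of tumors: CA9 is a classic target of the hypoxia-inducible factors, and CA12 in the breast is known as an estrogen-responsive gene of luminal cells. CA3 is known as a very abundant protein of fat cells and of skeletal muscle, CA6 as the secreted enzyme of saliva and milk.

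The members do not lie together in the genome, apart from those of the cytosolic enzymes (GRCm38, GENCODE vM21). Car13 (chr3:14641727-14663002), Car3 (chr3:14863512-14872523) and Car2 (chr3:14886273-14900770) follow each other on the plus strand within 259044 bases, with Car1 between Car13 and Car3, and 13749 bases separate the end of Car3 from the start of Car2. Car14 lies elsewhere on that chromosome (chr3:95897768-95904691, minus strand). Chromosome 4 carries Car8 (chr4:8143362-8239041, minus strand), Car9 (chr4:43506966-43513729, plus strand) and Car6 (chr4:150187015-150201332, minus strand). Car12 is on the plus strand of chromosome 9 (chr9:66713686-66766845) and Car4 on that of chromosome 11 (chr11:84957786-84966044). Exons of Car9 share bases with the antisense gene Gm12454, and exons of Car14 with Aph1a on the other strand. The libraries did not keep the strand, so reads in shared bases cannot be assigned to 1 of the genes.

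Promoter sequences were at hand from RefSeq (GRCm38.p6) for Car4, Car6, Car9, Car12 and Car14. They were searched on both strands for ACGTG, a core of the hypoxia response element, because Car9 is the textbook target of that element. Of 32851 mouse promoters of the same 300 bases, 19.6% held the motif. The stretches shown are those of Car9 and Car6 that hold it, and the 120 bases before the RefSeq start of Car12, which held none. Capitals mark the motif, which in Car9 reads CACGT because it lies on the other strand.
Car9 (chr4:43506996-43507025, plus strand): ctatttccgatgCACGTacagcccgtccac
Car6 (chr4:150201267-150201296, minus strand): gaggaggtgaggCACGTGcacaggcaccaa
Car12 (chr9:66713566-66713685, plus strand): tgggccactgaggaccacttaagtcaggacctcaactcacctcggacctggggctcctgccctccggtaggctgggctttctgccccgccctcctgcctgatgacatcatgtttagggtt
In Car9 the match began 18 bases before the RefSeq start, which is itself downstream of the start of the GENCODE gene. In Car6 it was the palindrome CACGTG, the E-box letters, which hold the motif on both strands. It began 149 bases before the RefSeq start, which is also downstream of the start of the GENCODE gene. The stretches shown for Car9 and Car6 thus lie inside their GENCODE genes. The Car14 and Car4 windows each held 1 match on the other strand, close to the start. A match describes letters only.

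Expression was given as FPKM, the fragments of a gene scaled to its length and to the mapped fragments of the library, so levels can be compared between genes. FPKM summed to between 526854.9 and 783718.6 per sample, and the number of reads was not in the files. Steps in the lowest values gave a relative depth for 13 of 15 pairs of injected tumors, with a largest ratio of 1.32. Of the 15 pairs of normal and untreated tumor samples only 2 gave one, both within a group, with a largest ratio of 1.53. Depth between normal tissue and tumors is thus not known. All 7 luminal epithelial marker genes were above 0 in every sample, which any tissue holding epithelium would meet. Marker levels moved with the groups. Summed FPKM of 9 white adipocyte genes (Adipoq, Plin1, Lep and others) was 27307 to 34595 in normal tissue and 206 to 2663 in tumors, and all 9 were lower in tumor. Summed FPKM of 10 skeletal muscle genes was 14.0 to 107 in normal tissue and 1946 to 5701 in tumors, and all 10 were higher. 6 of 7 luminal genes were higher in tumor and 8 of 8 endothelial, 6 of 6 brown adipocyte and 6 of 6 B cell genes lower. These calls are from the limma test described below (adjusted p under 0.05), in which 28.8% of all genes were higher and 31.7% lower. Genes entered that test at 1 FPKM in 3 of the 6 samples. All 6 B cell genes and a brown adipocyte gene did so only through normal tissue, and some muscle genes only through the tumors. In bulk tissue, fewer cells of a type and less RNA per cell cannot be told apart.

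The first comparison asked how tumors differed from normal tissue. Of the 9 genes, Car2, Car6, Car9 and Car12 were higher in tumors, Car3, Car4 and Car13 were lower, Car8 did not pass the test, and Car14 was under the filter on low values. Differences were tested with limma on log2(FPKM + 2^-5) over 13031 genes, those that reached 1 FPKM in 3 or more of these 6 samples, and p-values were adjusted over all of them after Benjamini and Hochberg. Among all genes tested, 28.8% were higher and 31.7% lower, so a call was common in this comparison. The groups did not overlap for the same 7 members, against 33.1% of all genes higher without overlap and 35.8% lower. Car9 passed the filter only through the tumors. The median log2 change was 0.80 over the 8 members tested and -0.02 over all genes tested.

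**Figure D1:**
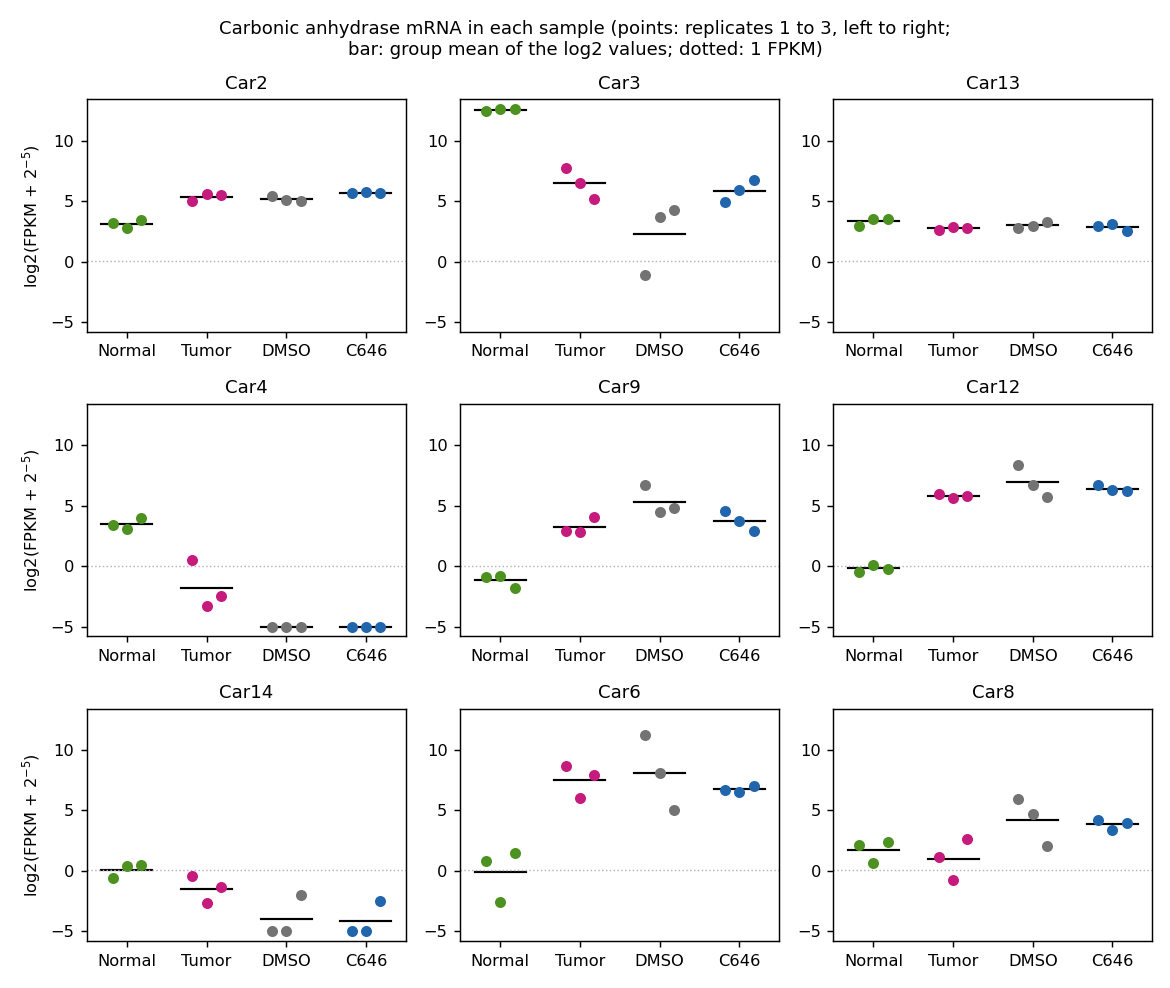
Level of each carbonic anhydrase in every sample, as log2(FPKM + 2^-5) on the y axis, with the 4 groups on the x axis, replicates 1 to 3 as points from left to right and the group mean of the log2 values as a bar. Car3 stood at 5503 to 6412 FPKM in normal tissue and at 36.3 to 220 FPKM in tumors, while Car12 moved the other way, from at most 1.05 FPKM to at least 49.97 FPKM.

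Of the cytosolic enzymes, Car3 changed most. Its FPKM was 5503, 6412 and 6265 in the normal replicates and 220, 90.5 and 36.3 in the tumors. The groups were far apart, and the tumors differed among themselves by 6.05 times, the normal replicates by 1.17 times. Normal replicates pooled 3 mice each and tumors came from 1 mouse each, so spreads within these groups are not comparable. The mean fell from 6060 ± 488 FPKM to 115 ± 94.1 FPKM (SD, n = 3 each), 52.5-fold lower in tumor, with a log2 change of -6.07 (SE 0.58, adjusted p = 0.00015). White adipocyte markers moved with it. Per 1000 FPKM of the white adipocyte list, Car3 was 201, 185 and 203 FPKM in normal tissue and 82.4, 440 and 164 FPKM in tumors, and on this scale the groups overlapped (exact permutation test, two-sided, p = 0.7, adjusted p = 0.7 over 12 such ratios). The overlap depends on which genes lead the sum. In tumor replicates 2 and 3 most of it was Fabp4 (81.7 and 82.3 FPKM) and Pnpla2 (86.3 and 76.1 FPKM). In normal tissue Pnpla2 was only 873 to 1281 FPKM of 27307 to 34595 FPKM. Mean Adipoq was 65.5-fold lower in tumor and mean Pnpla2 10.3-fold lower. Markers of skeletal muscle, which also makes CA3, moved in the opposite direction. The part of fat or muscle in the Car3 change was not tested.

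Car2, the widespread fast cytosolic enzyme, was higher in tumors without overlap. Its FPKM was 9.24, 6.82 and 11.0 in normal tissue and 31.7, 48.4 and 45.8 in tumors. The mean was 4.65-fold higher in tumor (log2 change 2.22, SE 0.24, adjusted p = 0.00023). The luminal list rose as well. Per 1000 FPKM of that list, Car2 was 9.54 to 19.1 FPKM in normal tissue and 7.72 to 16.5 FPKM in tumors, and these ranges overlapped (exact permutation test, two-sided, p = 0.6, adjusted p = 0.655 over 12 ratios). Car2 and Car3, neighbours on chromosome 3, thus moved in opposite directions.

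Car13, the third gene of that cluster, had the smallest fitted log2 change of the members tested. Its FPKM was 7.84, 11.8 and 11.6 in normal tissue and 5.99, 7.27 and 6.92 in tumors. The lowest normal sample lay just above the highest tumor. The mean was 1.55-fold lower in tumor (log2 change -0.61, SE 0.20, adjusted p = 0.033). This call was lost under quantile normalization (limma, adjusted p = 0.13) and without normal replicate 2 (adjusted p = 0.11), normal replicate 3 (adjusted p = 0.12), tumor replicate 1 (adjusted p = 0.077) or tumor replicate 3 (adjusted p = 0.065). Per 1000 FPKM of the luminal list, Car13 was 8.09 to 25.8 FPKM in normal tissue and 1.46 to 2.48 FPKM in tumors. These ranges did not overlap (exact permutation test, two-sided, p = 0.1, adjusted p = 0.171 over 12 ratios). The luminal sum itself was 458 to 969 FPKM in normal tissue and 2936 to 4102 FPKM in tumors. Its rise alone lowers this ratio for a gene with level FPKM.

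**Figure D2:**
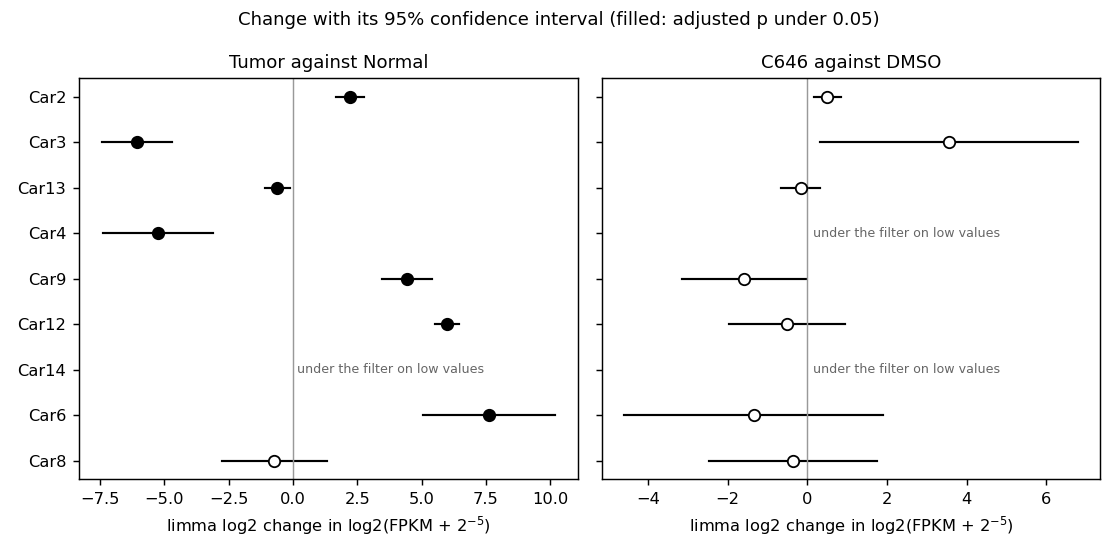
The limma log2 change of each carbonic anhydrase with its 95% confidence interval (x axis), for tumor against normal on the left and C646 against DMSO on the right, filled where the adjusted p was under 0.05. In tumors, 4 genes lay to the right of 0 and 3 to the left with filled points, while no point on the right was filled.

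Among the membrane enzymes, Car12 and Car9 were higher in tumors. Car12 FPKM was 0.70, 1.05 and 0.84 in normal tissue and 63.2, 49.97 and 56.3 in tumors. The tumors were close to each other, within 1.26 times, and all were far above normal tissue. The mean was 65.7-fold higher (log2 change 5.998, SE 0.19, adjusted p = 7.1e-06). Per 1000 FPKM of the luminal list it was 0.72 to 2.28 FPKM in normal tissue and 15.4 to 17.5 FPKM in tumors, 11.2-fold higher with no overlap (exact permutation test, two-sided, p = 0.1, the smallest that 3 samples against 3 can give, adjusted p = 0.171 over 12 ratios).

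Car9 was low in normal tissue, at 0.51, 0.53 and 0.26 FPKM, and reached 7.41, 7.16 and 16.4 FPKM in the tumors. Tumor replicate 3 was the highest of the tumors, and all 3 tumors were above all normal samples. The mean was 23.8-fold higher (log2 change 4.43, SE 0.42, adjusted p = 0.00014). Car9 entered this test only through the tumors, and without the filter on low values its limma adjusted p was 0.00020. Relative to the luminal list, Car9 was 4.37-fold higher, with 0.45 to 1.158 FPKM per 1000 in normal tissue and 1.81 to 5.09 FPKM per 1000 in tumors (exact permutation test, two-sided, p = 0.1, adjusted p = 0.171). The antisense gene Gm12454, which shares exon bases with Car9, has no row of its own in the tables.

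Car4, an enzyme anchored in the membrane by a lipid and known from capillary endothelium, moved the other way. Its FPKM was 10.6, 8.15 and 15.9 in normal tissue and 1.36, 0.07 and 0.15 in tumors. The mean was 22.0-fold lower (log2 change -5.25, SE 0.90, adjusted p = 0.0020), and tumor replicate 1 stood above the other tumors. That replicate also held the most adipocyte signal of the tumors, 2663 FPKM over the white adipocyte list against 206 and 221 FPKM. Per 1000 FPKM of that list, Car4 was 0.24 to 0.51 FPKM in normal tissue and 0.34 to 0.66 FPKM in tumors (exact permutation test, two-sided, p = 0.5, adjusted p = 0.6). As said for Car3, Fabp4 and Pnpla2 made up most of that sum in tumor replicates 2 and 3. Per 1000 FPKM of the endothelial list, Car4 was 48.4 to 79.4 FPKM against 1.94 to 31.9 FPKM, without overlap (p = 0.1 in the same exact test, adjusted p = 0.171). The part of either cell type in the change was not tested. Car14, a further membrane enzyme, was at 0.62, 1.29 and 1.35 FPKM in normal tissue and 0.70, 0.13 and 0.36 FPKM in tumors. These values overlapped and were under the filter. Aph1a, which overlaps it, was at 15.4 to 21.9 FPKM and 19.7 to 22.9 FPKM.

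Car6, the secreted enzyme, had the largest fitted change of the members. Its FPKM was 1.69, 0.14 and 2.65 in normal tissue and 403, 64.4 and 238 in tumors. Every tumor was far above every normal sample, with a spread of 6.26 times among tumors and 18.9 times among normal samples. The mean was 157-fold higher in tumor (log2 change 7.63, SE 1.09, adjusted p = 0.00086). In 2 of 3 tumors Car6 was the most abundant of the 16 family genes. Relative to the luminal list it was 29.1-fold higher without overlap (exact permutation test, two-sided, p = 0.1, adjusted p = 0.171). Of 5 milk protein genes 3 were higher in tumor: Wap (log2 change 10.7), Lalba (log2 change 6.92) and the casein gene Csn3 (log2 change 6.29). Of all genes tested, 28.8% were higher. The casein genes Csn1s1 (limma adjusted p = 0.13) and Csn2 (limma adjusted p = 0.16) did not pass. Summed milk FPKM was 176 to 623 in normal tissue and 13149, 31650 and 17047 in the tumors, highest in the tumor where Car6 was lowest. Of 2 salivary genes tested, the secreted protein gene Dcpp1 was higher (log2 change 6.34) and the amylase gene Amy1 lower (134 to 170 FPKM against 0.73 to 5.75 FPKM, log2 change -6.39). Dcpp1 passed the filter on low values only through the tumors. The 6 salivary genes with a row in every table, which leaves out Amy1, summed to at most 0.25 FPKM in normal tissue, with 5 of them at 0 there, and to 6.29 to 37.7 FPKM in tumors. Neither list's part in the Car6 values was tested.

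Car8 belongs to the family by sequence but lacks catalysis and is known to bind the IP3 receptor. It was at 4.37, 1.51 and 5.26 FPKM in normal tissue and 2.14, 0.56 and 6.26 FPKM in tumors. The groups overlapped, and the log2 change of -0.72 (95% confidence interval -2.74 to 1.31, adjusted p = 0.50) turned to 0.16 without tumor replicate 2. Per 1000 FPKM of the luminal list, Car8 was 3.30 to 9.14 FPKM in normal tissue and 0.19 to 1.95 FPKM in tumors (exact permutation test, two-sided, p = 0.1, adjusted p = 0.171). As for Car13, the rise of the luminal sum alone lowers this ratio, so it does not show a decrease of Car8. Of the IP3 receptor genes with a row of their own, Itpr2 was lower in tumor (log2 change -0.82, adjusted p = 0.0086) and Itpr1 did not pass (log2 change -0.32, adjusted p = 0.091).

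**Figure D3:**
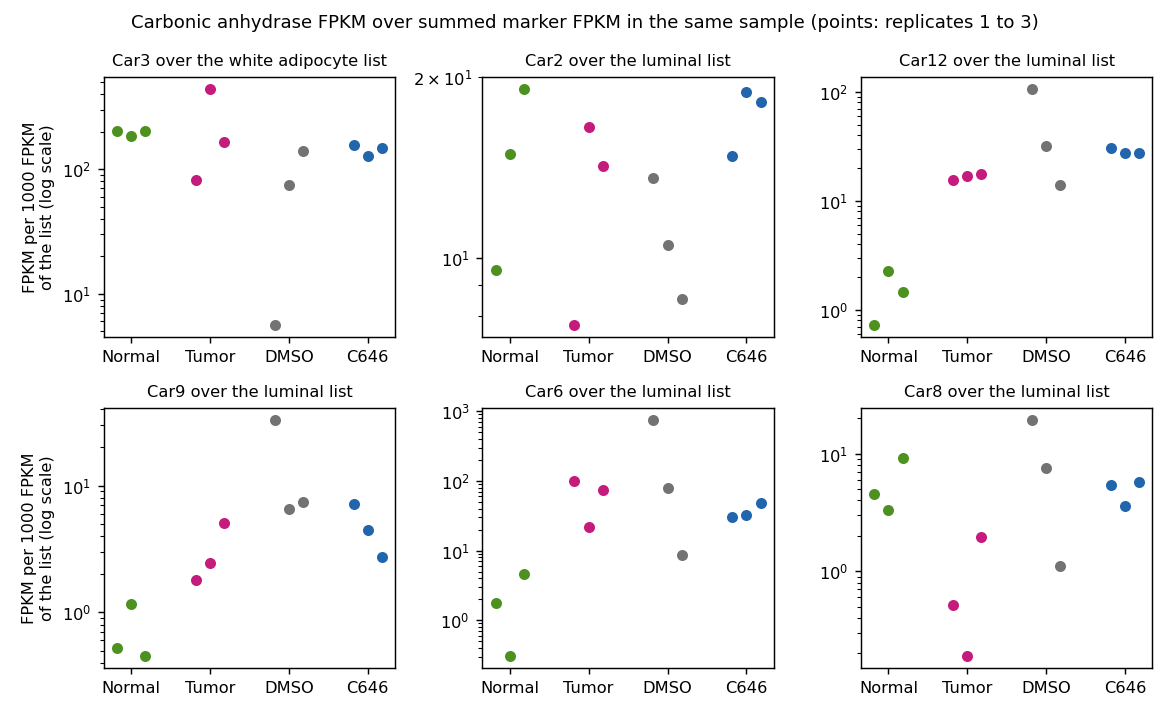
FPKM of 6 carbonic anhydrases per 1000 FPKM summed over a marker list in the same sample (y axis, log scale), by group, with replicates as points. Normal and tumor overlapped for Car3 over the white adipocyte list and Car2 over the luminal list. They were apart for Car12, Car9, Car6 and Car8 over the luminal list. The luminal sum was itself higher in tumors, which lowers the ratio of a gene with level FPKM. The white adipocyte sum was mostly Fabp4 and Pnpla2 in tumor replicates 2 and 3, and mostly Pnpla2 in DMSO tumors.

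The make-up of the family differed between normal tissue and tumors. Car3 made up 98.4%, 98.7% and 98.2% of the FPKM summed over the 16 family genes in the normal replicates, and 29.0%, 31.7% and 8.63% in the tumors. Summed family FPKM fell from between 5590 and 6497 to between 285 and 757. Without Car3 it was instead 84.6 to 115 FPKM in normal tissue and 195 to 538 FPKM in tumors, with no overlap. Outward facing membrane enzymes summed to 12.0 to 19.5 FPKM in normal tissue, led by Car4, and to 60.0 to 77.8 FPKM in tumors, led by Car12.

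**Figure D4:**
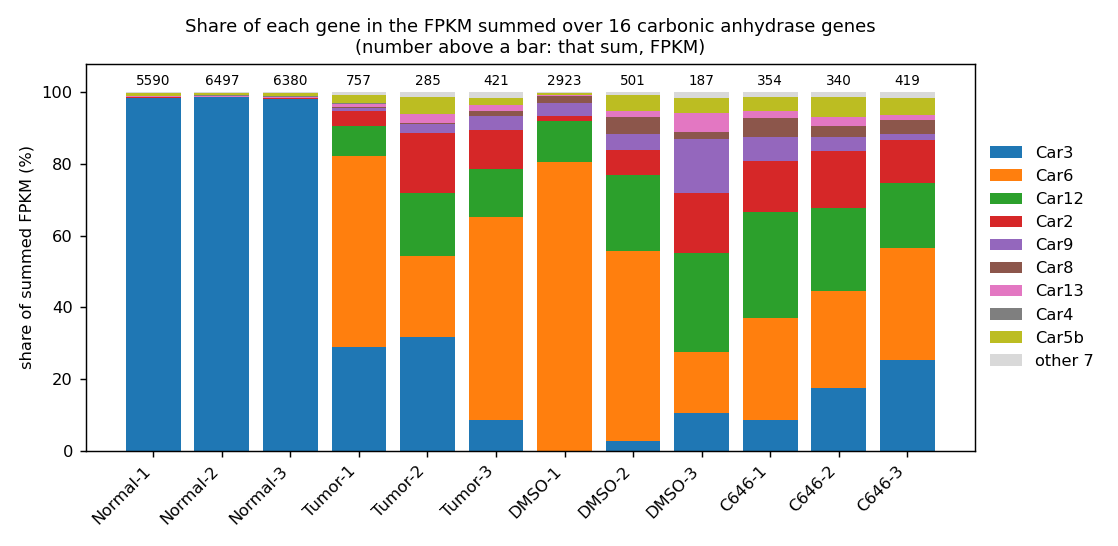
Share of each carbonic anhydrase gene in the FPKM summed over all 16 (y axis, percent) in each of the 12 samples, with the summed FPKM above each bar. Car3 held over 98% of each normal bar. Car6, Car12, Car2 and Car9 together held most of each tumor bar, with Car6 at 80.5% in DMSO replicate 1. Car3 still held up to 31.7% of an untreated tumor bar and up to 25.5% of an injected one.

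Of the other 7 family genes, 4 could be tested, and 1 was higher and 3 were lower, where 28.8% of all genes tested were higher and 31.7% lower. Car5b, a mitochondrial enzyme and the second most abundant of the family in normal tissue, was lower in tumor (44.6, 46.0 and 57.5 FPKM against 18.6, 13.3 and 8.44 FPKM; log2 change -1.94, adjusted p = 0.00094). Car7, a cytosolic enzyme, was lower too (log2 change -1.89, adjusted p = 0.0081), as was Car11, a relative without catalysis (log2 change -2.57, adjusted p = 0.0014). Car15, a membrane enzyme whose exons share bases with Gm20518, was higher (log2 change 1.33, adjusted p = 0.014). Car1, Car5a and Car10 stayed under 1 FPKM in all 12 samples.

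The genes of transport and regulation that work with these enzymes are given as values, since a call was common among all genes tested (28.8% higher and 31.7% lower). Of 14 bicarbonate transporters 7 were tested, of which 1 was higher and 3 were lower. The chloride/bicarbonate exchanger Slc4a2 was higher (log2 change 1.10), and the sodium/bicarbonate cotransporter Slc4a4 was lower (log2 change -5.13), as were the sodium-driven exchanger Slc4a8 (log2 change -3.73) and the anion exchanger Slc26a6 (log2 change -1.36). Of 12 genes of proton and lactate export 6 were tested, 3 higher and 2 lower. The lactate exporter Slc16a3 was higher (log2 change 2.98), while the proton channel gene Hvcn1 (log2 change -4.74) and the monocarboxylate transporter Slc16a7 (log2 change -1.71) were lower. Hvcn1 is known from B cells, and all 6 B cell markers were lower too, with sums of 241 to 305 FPKM in normal tissue and 0.48 to 0.99 FPKM in tumors, whose part in the Hvcn1 change was not tested. Bsg, the partner protein of lactate exporters, was higher (log2 change 0.96).

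Of 20 further target genes of the hypoxia-inducible factors, 6 were higher in tumor, as Car9 was, and 7 were lower, with a median log2 change of -0.07 beside -0.02 over all genes. These shares are near those of all genes tested (28.8% higher and 31.7% lower) and are no result about the list. Egln3, an oxygen-sensing hydroxylase, and the glucose transporter Slc2a1 rose (log2 changes 3.10 and 2.34), whereas the glycolytic regulator Pfkfb3 (log2 change -4.55) and the mitophagy receptor Bnip3 (log2 change -2.63) fell. Of the factor genes, Epas1, which encodes HIF-2 alpha, was lower (log2 change -2.47), and Hif1a did not pass (log2 change -0.47, adjusted p = 0.14). Of 8 estrogen and luminal genes 6 were tested, of which 3 were higher and 3 lower. The pioneer factor Foxa1 (log2 change -4.71) and the estrogen targeted growth factor Areg (log2 change -3.55) were lower, and the transcription factors Tfap2c (log2 change 3.31) and Xbp1 (log2 change 3.05) were higher. The others tested were the estrogen receptor gene Esr1, which was lower (log2 change -2.60), and Gata3, which was higher (log2 change 1.52).

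The second comparison asked how tumors of mice given C646 differed from those given DMSO. None of the 7 members tested passed limma with adjustment over all 12083 genes tested, of which 0% were called in either direction. Without adjustment, p under 0.05 was reached by Car2 and Car3 on the higher side and Car9 on the lower side, against 1.40% and 1.78% of all genes tested. Car2 and Car3 were also the only members whose groups did not overlap, both higher with C646, as 4.04% of all genes were higher without overlap and 4.52% lower. Car4 and Car14 were under the filter. The median log2 change was -0.36 over the 7 members and -0.01 over all genes.

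Car2 was at 42.6, 35.1 and 31.7 FPKM in the DMSO tumors and 50.1, 54.4 and 49.7 FPKM in the C646 tumors. All C646 tumors lay above all DMSO tumors, by 1.41-fold in the mean. The log2 change was 0.50 (95% confidence interval 0.17 to 0.84), with p = 0.0093 in limma before adjustment, adjusted p = 0.99, and p = 0.1 in the exact permutation test. It stayed between 0.41 and 0.62 when each tumor was left out in turn. Relative to 1000 FPKM of the luminal list, Car2 was 8.52 to 13.6 FPKM with DMSO and 14.8 to 18.9 FPKM with C646, again without overlap (exact permutation test, two-sided, p = 0.1, adjusted p = 0.45 over 9 ratios).

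Car3 was at 0.43, 13.2 and 19.5 FPKM with DMSO and at 30.7, 59.3 and 107 FPKM with C646. The groups did not overlap, and DMSO replicate 1 was far below the rest. The mean was 5.93-fold higher with C646 (log2 change 3.56, 95% confidence interval 0.32 to 6.79, limma p = 0.035 before adjustment, adjusted p = 0.99, exact permutation p = 0.1), and the log2 change was 1.85 without DMSO replicate 1. None of the 8 white adipocyte genes tested was called, but their list was ordered as Car3 was between the groups, with sums of 76.7, 179 and 140 FPKM for DMSO and 197, 470 and 725 FPKM for C646. Per 1000 FPKM of that list, Car3 was 5.60, 73.9 and 139 FPKM with DMSO and 156, 126 and 147 FPKM with C646, and these values overlapped (exact permutation test, two-sided, p = 0.2, adjusted p = 0.45 over 9 ratios). Most of each DMSO sum came from the single gene Pnpla2, at 59.0, 100 and 77.2 FPKM. Its mean was 1.23-fold higher with C646, while that of Adipoq was 21.1-fold higher. With DMSO the ratio thus largely sets Car3 against Pnpla2. Skeletal muscle markers were high in DMSO replicate 3 and C646 replicates 1 and 3 (380 to 428 FPKM). They were at most 2.98 FPKM in the other 3 tumors, an order that Car3 did not follow. The part of fat or muscle in these Car3 values was not tested.

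Car9 was at 104, 22.0 and 27.7 FPKM with DMSO and 24.2, 12.9 and 7.47 FPKM with C646. The highest C646 tumor lay between the lower pair of DMSO tumors. The mean was 3.44-fold lower with C646 (log2 change -1.58, 95% confidence interval -3.13 to -0.03, limma p = 0.046 before adjustment, adjusted p = 0.99, exact permutation p = 0.2), and without DMSO replicate 1 the log2 change was -0.89. Hypoxia targets had a median log2 change of -0.85 over 20 genes, with none called. Among these, Ero1l, an oxidase of protein folding, had a log2 change of -1.34 and Pdk1, which restrains pyruvate oxidation, of -0.96 (limma adjusted p = 0.99 for both). Of the 20 targets, 12 were highest of the 6 tumors in DMSO replicate 1, 7 in DMSO replicate 3 and 1 in DMSO replicate 2. DMSO replicate 2 was also the lowest of the 6 tumors for 9 targets, and C646 replicates 1, 2 and 3 for 1, 2 and 8.

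Car6, Car8 and Car12 were spread more widely within the DMSO group than between the groups. Car6 was at 2354, 266 and 31.8 FPKM with DMSO and 101, 91.8 and 131 FPKM with C646. The DMSO tumors thus differed by 74.1 times and enclosed the C646 tumors, which differed by 1.42 times. The log2 change of -1.35 (95% confidence interval -4.59 to 1.90) became 0.21 without DMSO replicate 1. The same 6 salivary genes summed to 157, 465 and 4.93 FPKM with DMSO and 15.9 to 37.4 FPKM with C646, highest in DMSO replicate 2 and lowest, as Car6 was, in DMSO replicate 3. This order is that of a single gene, Prol1, at 116, 461 and 0 FPKM with DMSO. Dcpp1 was instead highest, as Car6 was, in DMSO replicate 1 (32.7 FPKM) and lowest in C646 replicate 3 (2.53 FPKM).

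Car12 was at 333, 106 and 51.6 FPKM with DMSO and 104, 78.8 and 75.6 FPKM with C646. Car8 was at 60.9, 25.1 and 4.14 FPKM with DMSO and 18.3, 10.4 and 15.8 FPKM with C646. For both genes the C646 tumors lay inside the range of the DMSO tumors. The log2 change was -0.52 for Car12 (95% confidence interval -1.97 to 0.94) and -0.36 for Car8 (-2.46 to 1.75), and without DMSO replicate 1 it was 0.21 and 0.50.

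DMSO replicate 1 was the highest of the 6 injected tumors for Car6, Car8, Car9 and Car12, and exceeded the next DMSO tumor by 8.85, 2.43, 3.75 and 3.14 times. It was the lowest for Car3, and for 7 of 8 white adipocyte genes tested. Its luminal sum of 3140 FPKM was within the 2730 to 3722 FPKM of the other injected tumors. The direction of Car6, Car8 and Car12 between C646 and DMSO turned when this tumor was left out. DMSO replicate 3 was lowest for Car2, Car6, Car8 and Car12.

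**Figure D5:**
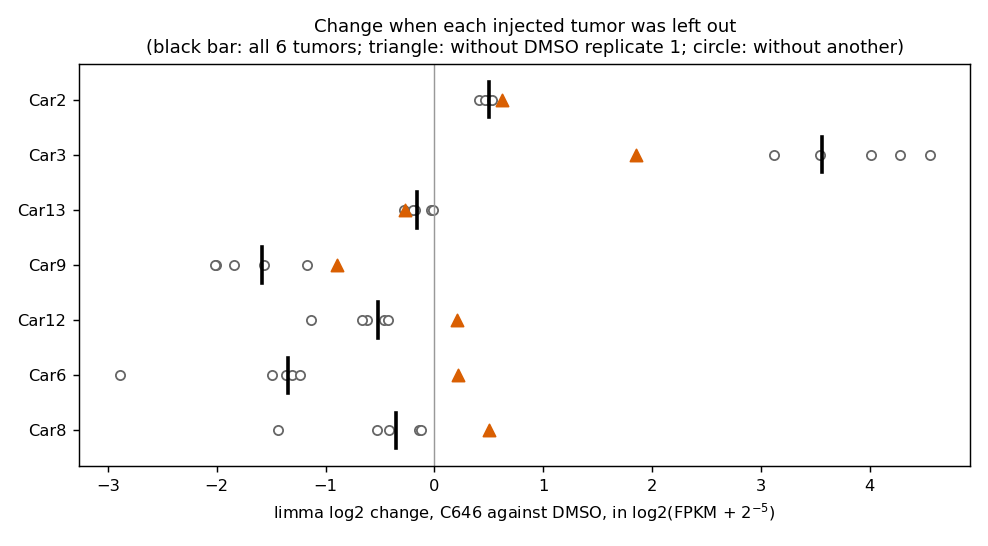
The limma log2 change of C646 against DMSO (x axis) for the 7 members tested, with all 6 tumors (bar) and with each tumor left out in turn (triangle for DMSO replicate 1, circles for the others). Without DMSO replicate 1, Car6, Car8 and Car12 moved across 0, Car3 and Car9 moved toward it, and Car2 and Car13 kept their side.

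Car13 differed little, with 6.99 to 9.73 FPKM in DMSO tumors and 5.90 to 8.54 FPKM in C646 tumors. Its log2 change was -0.16, and the 95% confidence interval of -0.65 to 0.33 leaves room for a change of that size in either direction. Car4 was listed at 0 in all 6 injected tumors. Car14 was listed at 0 in 4 of them and at 0.22 and 0.15 FPKM in DMSO replicate 3 and C646 replicate 3. Of the other family genes, Car5b (log2 change 0.30) and Car15 (log2 change 0.70) were tested and did not pass (adjusted p = 0.99 for both).

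None of the genes in the transporter, hypoxia, estrogen or IP3 receptor lists was called between C646 and DMSO. The median log2 change was 0.00 over 5 bicarbonate transporters, -0.22 over 6 genes of proton and lactate export, 0.01 over 5 hypoxia factor genes and 0.24 over 6 estrogen and luminal genes. Bsg had the smallest unadjusted p of the export genes, with a log2 change of -0.84, and Gata3, a luminal transcription factor, that of the estrogen and luminal genes, with 0.33.

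Across all 12 samples the members ordered themselves differently. By group mean, Car9, Car12 and Car6 were highest in DMSO tumors, followed by C646 tumors for Car9 and Car12 and by untreated tumors for Car6, with normal tissue lowest for each. Without DMSO replicate 1 the DMSO mean was 149 FPKM for Car6, below the 235 FPKM of untreated tumors, and 78.8 FPKM for Car12, below the 86.3 FPKM of C646 tumors. Untreated and injected tumors came from separate experiments and were not tested against each other. Neighbours in these orders overlapped in their single samples in several cases, for example Car12 at 51.6 to 333 FPKM with DMSO and 75.6 to 104 FPKM with C646. Car3 ran the other way, from 6060 FPKM in normal tissue through 115 and 65.5 FPKM in untreated and C646 tumors to 11.1 FPKM in DMSO tumors. In normal tissue, the order of the members by mean FPKM was Car3, Car4, Car13, Car2, Car8, Car6, Car14, Car12 and Car9, but neighbours overlapped in their single samples from Car4 to Car2 and from Car8 to Car12. Car3 stood clear of Car4, Car2 of Car8, and Car12 of Car9, though the range of Car6 took in that of Car9.

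The genes most like each member over the 12 samples, by Pearson's r of log2(FPKM + 2^-5) among 13232 genes, are given as a description, since these r mostly follow the groups. For Car12 they were Def8 (0.99), Tbc1d30 (0.99) and Cited2 (0.99), the last a known hypoxia-induced regulator that binds p300. Slc35e3 (0.99), Stbd1 (0.98) and Xpnpep1 (0.98) were most like Car9. For Car3 they were the dendritic cell lectin genes Cd209a (0.99) and Cd209f (0.98) and the matrix gene Dpt (0.98). Dgat1, an enzyme of triglyceride synthesis (0.99), Abhd1 (0.98) and Cox8b, a respiratory chain subunit typical of brown fat (0.98), were most like Car4. Car6 was followed by Bcl2l14 (0.98), Scgb2b27 (0.97) and Fhdc1 (0.97), and Car2 by Nol4l (0.99), Chka (0.98) and Shroom1 (0.98). Likeness was lower for Car8, with S100pbp at 0.96, and for Car13, with Tmem70 at 0.93.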

How the data were processed

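RNA-seq was analysed in 12 samples of 4 groups, with 3 replicates each. Per the labels and methods, poly(A) libraries without strand were sequenced, and the authors mapped reads to mm10 with TopHat 2.1.1 and deposited FPKM per gene from Cufflinks 2.2.1. The annotation is not given in the sources used here, and read counts were not in the files, so no counting interval was given. Rows without a name (1837 of 26220 rows in normal and tumor tables) were dropped, and repeated names were summed. Tests used limma 3.58.1 in R 4.3.3 (lmFit, eBayes with trend) on log2(FPKM + 2^-5) and covered genes that reached 1 FPKM in 3 of 6 samples, with an adjusted p threshold of 0.05. This scale understates the change of low genes. The script was tested on simulated data. Ratios to marker sums were compared on log2(ratio + 0.001) with exact permutation tests, which cannot go below 0.1. All 9 members were described. Of each other list, at most the 4 largest changes among those that passed were named. If none passed, at most 2 with the smallest p were named. Itpr1, Hif1a, Csn1s1 and Csn2 were named although they did not pass between tumor and normal. Esr1 and Gata3 were named beyond the 4, and Fabp4, Pnpla2 and Prol1 for their share of a marker sum. The 3 most correlated genes per member were named for likeness. Members and lists were chosen with earlier results of these data known. P-values measure the spread between these samples. Positions came from GENCODE vM21, and promoters from RefSeq. Python 3.11.15 was used for other steps.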

Additional observations from a re-analysis of the deposited data

How the results depend on the processing

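Alternatives were pseudocounts of 1 and 2^-2, other filters, median-ratio scaling, quantile normalization, the highest row of a repeated name, all 12 samples in one fit, eBayes without trend, the replicate number as a block, and leaving out each sample. For the 7 members called between tumor and normal, 16 alternative fits gave 109 results of single members. None of these reversed, and 104 kept the call. The other 5 were those of Car13. Without 1 sample, log2 changes of 4 results turned. That of Car8 in tumor ranged from -1.55 to 0.16 (without tumor replicate 2). Between C646 and DMSO the ranges were -2.89 to 0.21 for Car6, -1.43 to 0.50 for Car8 and -1.14 to 0.21 for Car12, the upper ends without DMSO replicate 1. Genes lower in tumor numbered 2570 to 4172 when 1 sample was left out, with 2686 without normal replicate 2 and 2570 without normal replicate 3, and genes higher 3030 to 3373. Members called higher numbered 3 to 4, because Car9 failed the filter without a tumor, and members called lower 2 to 3. Between C646 and DMSO, the fit over all 12 samples called 1 gene higher (Ypel4), and 0 to 12 genes were lower when 1 sample was left out, the 12 without DMSO replicate 2, none of them a carbonic anhydrase. Quantile normalization moved the median log2 change of all genes between tumor and normal from -0.02 to 0.12.

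Same-numbered samples deviated from their group means with r of -0.04, -0.10 and 0.01 (normal and tumor) and 0.18, 0.07 and 0.11 (DMSO and C646), so the numbers were not taken as pairs, and not every injected tumor correlated best with its own number. With the replicate block, 3439 genes were higher and 3827 lower in tumor, and 0 and 0 between C646 and DMSO, where 169 genes were higher and 215 lower at an unadjusted p under 0.05 in the fit without the block.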
